A study of Betula luminifera with 4 samples.

Results

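The regulators described here are the contigs of an assembled birch transcriptome whose protein name is that of a phosphate starvation regulator: PHOSPHATE STARVATION RESPONSE (PHR) and PHR1-LIKE transcription factors, the SUMO ligase SIZ1, the multicopper oxidase LPR1 and the ubiquitin-conjugating enzyme E2 24 (UBC24, also called PHO2). They were found by these names in the Swiss-Prot description, or in the Nr annotation where no Swiss-Prot match was given, and numbered 16 of 76899 assembled genes. The plants were seedlings of the Betula luminifera clone G49#, propagated in tissue culture for 2 months and grown in washed, sterilized sand. All of them received normal medium for 2 weeks and deionized water for 2 weeks before the treatment. Plants without phosphate (LP) were then watered with a modified Murashige and Skoog medium lacking KH2PO4, with K2SO4 supplying the potassium, and control plants (CK) with the same medium containing 1.25 mM KH2PO4. For each medium 1 library was made from roots and 1 from shoots, a mixture of equal amounts of stem and leaf RNA, so there are 4 libraries. The 54 plants of the study were 1 clone, and neither how many were pooled per library nor how long they were treated is given in the sources used here.

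As background, from work mostly in Arabidopsis and rice, PHR proteins are Myb-type factors that bind the promoters of phosphate starvation genes, among them phosphate importers and SPX proteins. When phosphate is ample, SPX proteins bound to inositol pyrophosphates hold PHR proteins away from DNA. SIZ1 attaches the small protein SUMO to targets that include PHR1. UBC24 marks phosphate importers and the exporter PHO1 for breakdown, and its transcript is cleaved by the microRNA miR399 during starvation. LPR1 is a ferroxidase at the root tip that slows root growth where phosphate is low and iron is present.

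Values are TPM, the share of each contig among all transcripts of a library after correction for length, so levels may be set beside each other between contigs. Every group is a single library, so replicate spread is unknown, no test was possible, and each difference compares these libraries. A size rule took the place of a test: a contig counted as higher or lower if it reached 1 TPM in either library and log2 of the ratio, 1 TPM being added to both values, was 1 or more in size. At a length of 1000 bp, 1 TPM stood for 46.1 fragments in LP roots against 30.2 in CK roots, and 32.3 in LP shoots against 23.5 in CK shoots. For the 49 member values of at least 5 TPM the counting error was 1.30% to 18.3%, with a median of 2.58%. It covers counting only and not the differences between plants. Genes whose best protein match was a eudicot numbered 34181 and held 51.4% of the TPM in LP roots against 65.8% in CK roots, and 78.1% in LP shoots against 81.5% in CK shoots. Median scaling over 12933 of these genes placed LP roots 0.63 log2 units below CK roots and LP shoots 0.11 above CK shoots. Photosynthesis markers, 45 eudicot-matched genes, summed to 4060 TPM in LP roots against 671 in CK roots, and 27300 in LP shoots against 42000 in CK shoots. Root markers, 16 such genes, summed to 112 TPM in LP roots against 343 in CK roots, and 175 in LP shoots against 156 in CK shoots, and did not set LP roots apart from shoots. In whole organs, fewer cells of a type and less RNA per cell cannot be told apart.

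By role the 16 contigs were 6 PHR or PHR1-LIKE, 5 SIZ1, 2 LPR1 and 3 UBC24. Their lengths ran from 240 to 2352 bp, with a median of 1323.5 bp against 322 bp over all assembled genes, and each had 1 to 14 transcripts. The best Nr match was the walnut Juglans regia for 15 of them and Coffea canephora for 1. A Myb DNA-binding domain was annotated on 4 PHR or PHR1-LIKE contigs, a MIZ zinc finger, the domain of SUMO ligases, on 2 SIZ1 contigs, a copper oxidase domain on both LPR1 contigs, and a ubiquitin-conjugating domain on 1 UBC24 contig, while 6 contigs had no Pfam domain. Some annotations went against the names. The same 4 Myb contigs carried the KEGG entry of the nuclear pore protein Nup214. The UBC24 contig of 879 bp carried only an amino acid transporter domain and its Nr match was unnamed. Both LPR1 contigs matched LPR2 in Nr, and the PHR1-LIKE 2 contig of 1418 bp matched PHR1-LIKE 3. The contig named PHR2 from a rice protein matched PHOSPHATE STARVATION RESPONSE 1-like of walnut in Nr. Contigs are therefore told apart here by length. The SIZ1 contigs of 1689 and 920 bp carry identifiers of 1 assembly component, as do the UBC24 contigs of 2074 and 879 bp, and either pair may share reads.

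All 16 regulators reached 1 TPM in some library, 15 reached 5 TPM, and 12 stood at 1 TPM or more in all 4 libraries. Their TPM summed to 393.7 in LP roots against 544.8 in CK roots, and 558.8 in LP shoots against 423.5 in CK shoots. The most abundant regulator was PHR1-LIKE 1 (PHL1) in both root libraries, SIZ1 of 1790 bp in LP shoots and SIZ1 of 920 bp in CK shoots. Of the 16, 1 was listed at 0 in LP roots against 3 in CK roots, and 2 in LP shoots against 2 in CK shoots. The plot of levels shows that most PHR, SIZ1 and UBC24 contigs were present in every library and that LPR1 stood below 1 TPM in both root libraries.

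**Figure D1:**
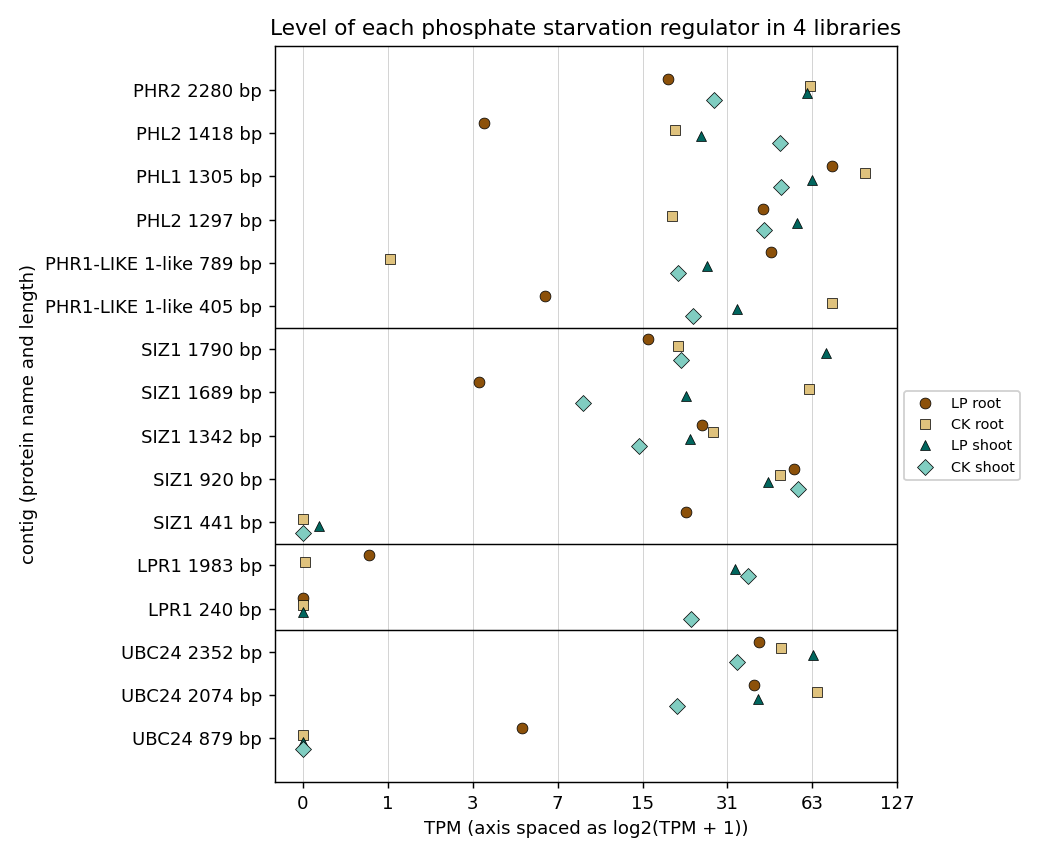
TPM of each of the 16 contigs (rows, named by protein and contig length) in LP roots, CK roots, LP shoots and CK shoots, 1 point per library; the horizontal axis is spaced as log2(TPM + 1). PHL1 stood between 48.56 and 96.98 TPM in all 4 libraries, whereas LPR1 of 1983 bp stood at 0.72 TPM or less in roots and above 33 TPM in shoots.

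In roots, LP against CK, 4 of the 14 regulators set against the size rule were higher, 4 were lower and 6 did not pass the size rule; the remaining 2, both LPR1, were under 1 TPM in both libraries. Over all genes 64.2% were called higher and 22.4% lower, and over eudicot-matched genes 40.0% and 33.8%. Both shares of the regulators (28.6% each) were below those of eudicot-matched genes. In shoots 3 of 14 were higher, 1 was lower and 10 did not pass, against 40.1% higher and 23.0% lower over all genes and 26.4% and 21.1% over eudicot-matched genes. These shares of the regulators (21.4% and 7.14%) were also below those of eudicot-matched genes, so calls were not more frequent among the regulators than in the background. The median log2 ratio of the regulators tested was -0.30 in roots, where it was 0.10 over eudicot-matched genes and 2.31 over all genes. In shoots it was 0.45, where it was 0.10 over eudicot-matched genes and 0.39 over all genes. The root order depended on genes listed at 0 in a library. Among contigs above 0 in both root libraries the median was -0.37 for regulators, -0.57 for eudicot-matched genes and -0.51 for all genes. Restricted likewise, the shoot medians were 0.52, 0.02 and 0.03. Above 0 in shoots were 10 of the 14 log2 ratios, and 5 of 14 in roots; scaled by the median these numbers were 10 and 9. Of the root ratios, 4 thus turned sign with the scaling, and the root median of the regulators became 0.30, against 0.67 over eudicot-matched genes.

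**Figure D2:**
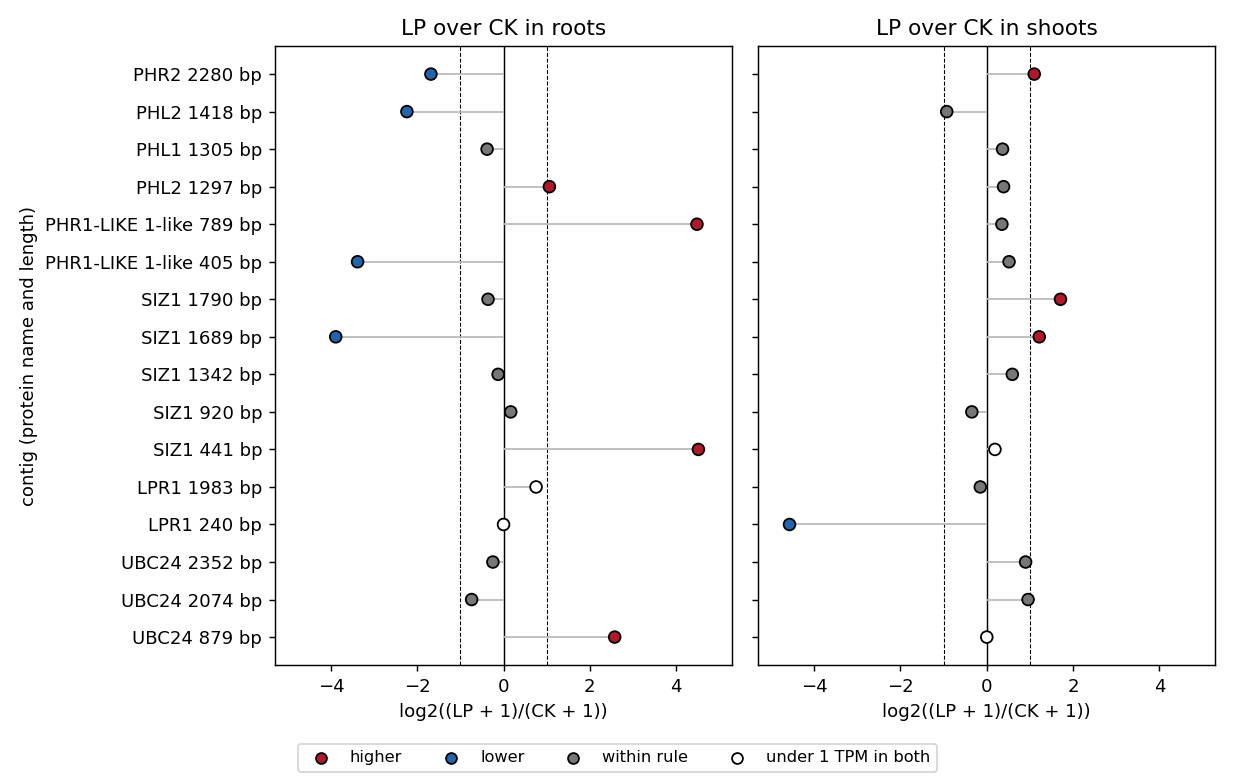
Log2((LP + 1)/(CK + 1)) of each contig in roots (left) and shoots (right), without scaling; the dashed lines mark the size rule at 1 in either direction, and open points are contigs under 1 TPM in both libraries. Large ratios in both directions appear in roots, while 10 of the 14 shoot ratios tested lie between the dashed lines.

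**Figure D3:**
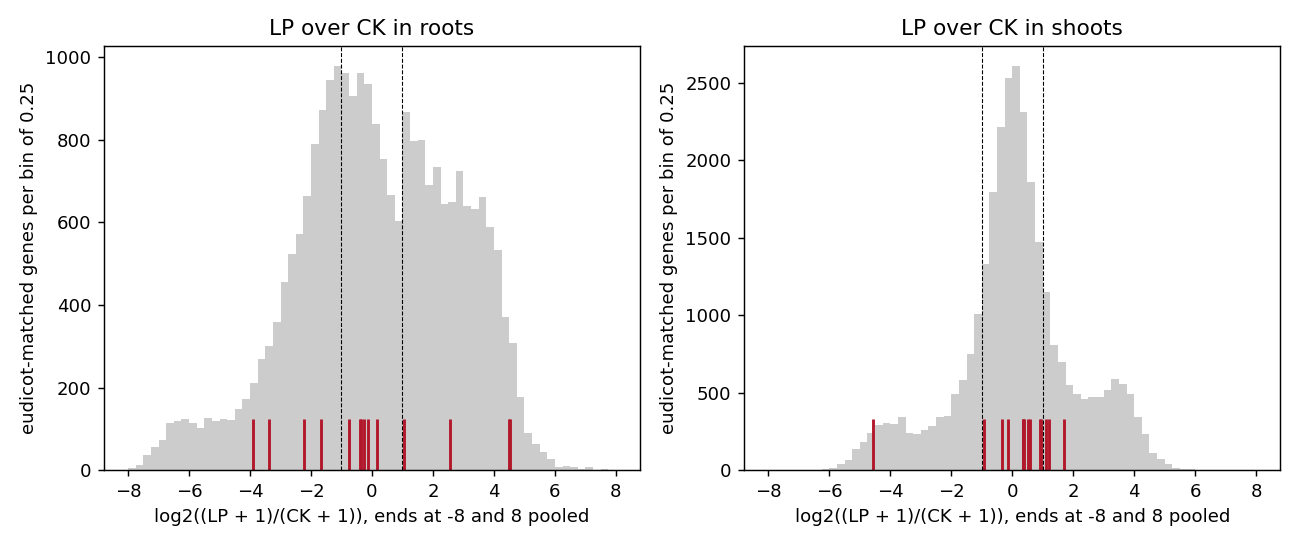
Distribution of log2((LP + 1)/(CK + 1)) over 25207 eudicot-matched genes in roots and 30678 in shoots (grey bars, genes per bin), with the 14 regulators tested in each organ as red lines; dashed lines mark the size rule. The root distribution is broad, with 34.0% of its genes listed at 0 in 1 of the 2 root libraries, against 20.6% in shoots.

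PHR2, named after the rice factor PHOSPHATE STARVATION RESPONSE 2 (TRINITY_DN27426_c0_g1, 2280 bp), is the only contig with a PHR name proper. It stood at 18.63 TPM in LP roots and 62.02 TPM in CK roots, and at 60.21 TPM in LP shoots and 27.56 TPM in CK shoots. The LP value was the lower one in roots and the higher one in shoots. The contig was called lower in LP roots (log2 ratio -1.68, 3.33-fold lower) and higher in LP shoots (1.10, 2.18-fold). Scaled, the root ratio was -1.08, still past the rule, and the shoot ratio was 0.99, just short of it. The counting errors of its 4 values were 1.36% to 2.38%.

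PHL1 (TRINITY_DN27607_c0_g1, 1305 bp), which in Arabidopsis acts alongside PHR1, varied least among the 6 PHR and PHR1-LIKE contigs. It had 74.22 TPM in LP roots against 96.98 in CK roots, and 62.83 in LP shoots against 48.56 in CK shoots. Neither ratio of LP to CK passed the rule (-0.38 in roots, which became 0.24 when scaled, and 0.37 in shoots). It made up 39.3% of the summed PHR and PHR1-LIKE TPM in LP roots against 35.4% in CK roots, and 23.9% in LP shoots against 23.1% in CK shoots.

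A further pair of contigs was named PHR1-LIKE 1-like from Nr alone and moved in opposite directions in roots. The one of 789 bp (TRINITY_DN23484_c2_g6) had 44.59 TPM in LP roots and 1.04 TPM in CK roots, and the one of 405 bp (TRINITY_DN24495_c1_g4) had 6.23 TPM in LP roots and 74.41 TPM in CK roots. The log2 ratios were 4.48 (42.9-fold higher) and -3.38 (11.9-fold lower). The CK value of the 789 bp contig corresponded to about 22.6 fragments, with a counting error of 21.0%. In shoots the same contigs stayed within the rule, at 26.14 TPM in LP and 20.29 TPM in CK for the 789 bp contig and at 33.65 TPM in LP and 23.23 TPM in CK for the 405 bp contig. Summed, the pair stood at 50.8 TPM in LP roots against 75.5 in CK roots, and 59.8 in LP shoots against 43.5 in CK shoots, and neither sum passed the rule between media (-0.56 in roots, 0.45 in shoots). Whether both are pieces of 1 gene was not tested.

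Contigs named PHR1-LIKE 2 (PHL2), a close relative that in Arabidopsis shares work with PHR1, showed the same kind of split. The 1297 bp contig (TRINITY_DN23672_c0_g1) had 41.61 TPM in LP roots and 19.40 in CK roots, a log2 ratio of 1.06 (2.14-fold). The 1418 bp contig (TRINITY_DN26361_c0_g3) had 3.40 TPM in LP roots and 19.78 TPM in CK roots, a log2 ratio of -2.24 (5.82-fold lower). In CK roots the pair was level, and in LP roots the shorter contig held nearly all of the sum (92.4%). Scaled, these root ratios were 1.67 and -1.72. In shoots the 1297 bp contig had 55.68 TPM in LP and 42.30 in CK (0.39), and the 1418 bp contig had 24.79 in LP and 48.08 in CK (-0.93, and -1.03 when scaled, just past the rule). Summed over both contigs PHL2 was 45.01 TPM in LP roots against 39.2 in CK roots, and 80.5 in LP shoots against 90.4 in CK shoots, and no sum passed the rule between media.

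By role, the 6 PHR and PHR1-LIKE contigs summed to 189 TPM in LP roots against 274 in CK roots, and 263 in LP shoots against 210 in CK shoots, log2 ratios of -0.53 in roots and 0.32 in shoots. Inside that sum the make-up differed more than the total. PHR2 held 9.87% in LP roots and 22.7% in CK roots, and 22.9% in LP shoots and 13.1% in CK shoots. The 789 bp PHR1-LIKE 1-like contig held 23.6% in LP roots and 0.380% in CK roots.

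**Figure D4:**
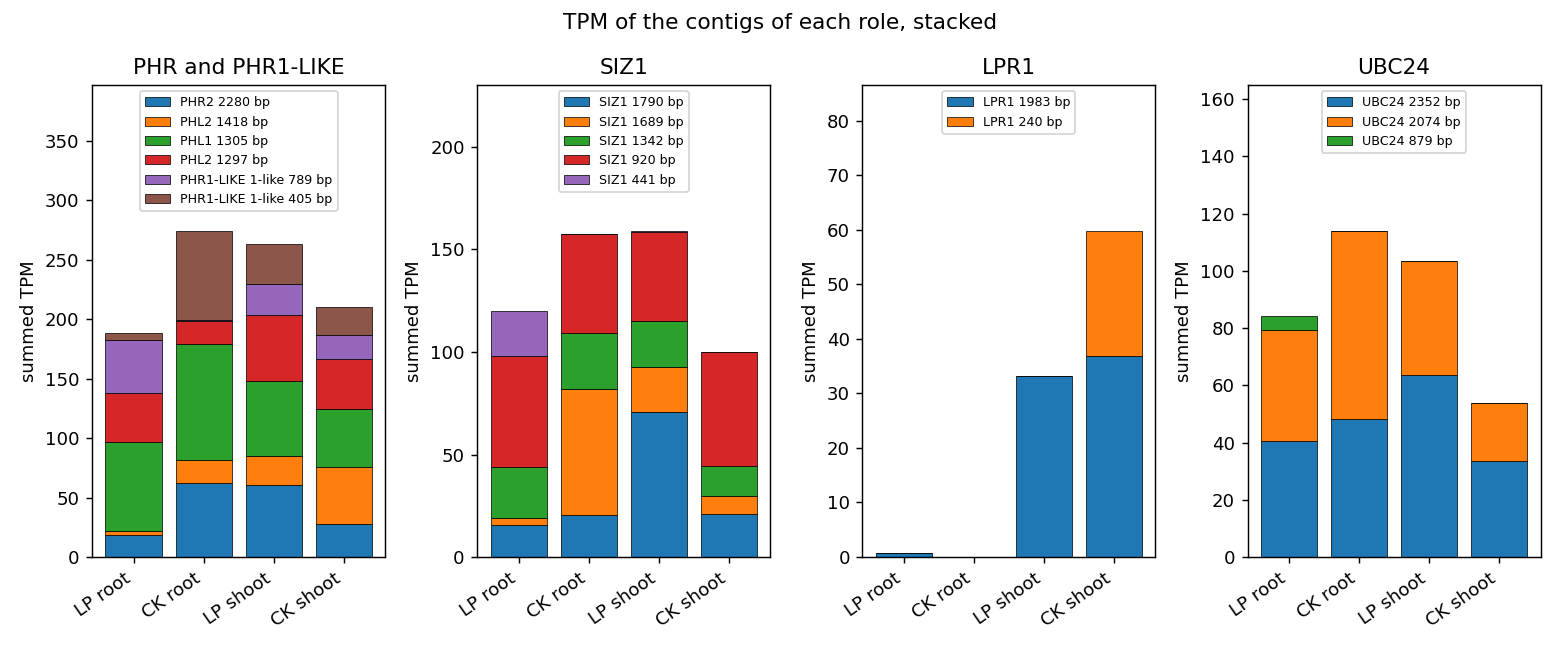
Stacked TPM of the contigs of each role in LP roots, CK roots, LP shoots and CK shoots (1 library each, bars start at 0, colours are contigs). The PHR and PHR1-LIKE sums range from 189 to 274 TPM and the SIZ1 sums from 100 to 159 TPM while the contigs within a bar change, and the LPR1 bars in roots are close to 0.

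SIZ1, the SUMO ligase, was carried by 5 contigs. That of 1790 bp (TRINITY_DN24240_c2_g1), with the MIZ domain, had 15.71 TPM in LP roots against 20.44 in CK roots, and 70.74 in LP shoots against 20.96 in CK shoots. Its LP shoot value stood above the others, which lay close together, and it was called higher in LP shoots (log2 ratio 1.71, 3.38-fold; 1.59 when scaled) and within the rule in roots (-0.36). The 1689 bp contig (TRINITY_DN28580_c3_g3), also with the MIZ domain, had 3.21 TPM in LP roots against 61.36 in CK roots, and 21.81 in LP shoots against 8.82 in CK shoots. It was called lower in LP roots (-3.89, 19.1-fold lower) and higher in LP shoots (1.22, 2.47-fold), and both calls held when scaled (-3.38 and 1.10). Opposite calls in the 2 organs were thus found for this contig and, without scaling, for PHR2, and for no other regulator.

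The 920 bp contig of the same assembly component (TRINITY_DN28580_c3_g2) was level, at 54.11 TPM in LP roots against 48.11 in CK roots, and 43.61 in LP shoots against 55.72 in CK shoots. Together with the 1689 bp contig it summed to 57.3 TPM in LP roots against 109 in CK roots, and 65.4 in LP shoots against 64.5 in CK shoots. The log2 ratios of this sum were -0.92 in roots and 0.02 in shoots, both within the rule. A contig of 1342 bp (TRINITY_DN25136_c0_g2), whose Swiss-Prot match was the rice protein, had 25.09 TPM in LP roots against 27.47 in CK roots, and 22.51 in LP shoots against 14.60 in CK shoots and passed no rule between media (-0.13 and 0.59). The shortest, of 441 bp (TRINITY_DN27886_c0_g3) and named SIZ1-like from Nr, was seen in LP roots at 21.88 TPM (about 302 fragments). It was listed at 0 in CK roots, where 3 fragments would have been 0.404 TPM, at 0.14 TPM in LP shoots, about 1 fragment, and at 0 in CK shoots. It was called higher in LP roots and was under 1 TPM in both shoot libraries.

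The SIZ1 sum over the 5 contigs was 120 TPM in LP roots against 157 in CK roots, and 159 in LP shoots against 100 in CK shoots. Its log2 ratios were -0.39 in roots and 0.66 in shoots, within the rule. The leading contig differed between libraries: it was the 920 bp contig in LP roots (45.1%) and in CK shoots (55.7%), the 1689 bp contig in CK roots (39.0%) and the 1790 bp contig in LP shoots (44.5%).

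LPR1, the ferroxidase studied in Arabidopsis root tips, was a shoot transcript in these libraries. The 1983 bp contig (TRINITY_DN26222_c1_g6) had 0.72 TPM in LP roots against 0.02 in CK roots, and 33.14 in LP shoots against 36.89 in CK shoots. Both root values lay far below both shoot values. The CK root value was about 1.39 fragments and the LP root value about 74.6, and both were under 1 TPM and not tested. Scaled, the pair came past the rule as higher in LP roots (1.01), with those few fragments behind the CK value. Photosynthesis markers in the root libraries stood at 4060 TPM in LP and 671 TPM in CK; their part in the root values of LPR1 was not tested. Between media the shoot values were level (-0.15). The other contig, of 240 bp (TRINITY_DN31455_c0_g1), was seen only in CK shoots, at 22.78 TPM or about 29.9 fragments. The remaining libraries list it at 0. In LP shoots 3 fragments would have been 1.74 TPM, and the contig was the only regulator called lower in LP shoots. Summed, LPR1 was 33.1 TPM in LP shoots and 59.7 TPM in CK shoots (-0.83), within the rule.

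UBC24, the enzyme that removes phosphate importers, was present on long contigs in all 4 libraries. The 2352 bp contig (TRINITY_DN28640_c1_g1) had 40.57 TPM in LP roots against 48.35 in CK roots, and 63.51 in LP shoots against 33.59 in CK shoots. The 2074 bp contig (TRINITY_DN27334_c1_g4), which carries the ubiquitin-conjugating domain, had 38.77 TPM in LP roots against 65.39 in CK roots, and 40.05 in LP shoots against 20.15 in CK shoots. On both, the LP value was the lower one in roots (-0.25 and -0.74) and the higher one in shoots (0.90 and 0.96), each within the rule. When scaled, the root ratio of the first was 0.37 and of the second -0.13, so the root direction of the 2352 bp contig turned with the scaling; the shoot ratios were 0.79 and 0.84. The contig of 879 bp (TRINITY_DN27334_c1_g3), which carries the amino acid transporter domain, was seen in LP roots alone, at 4.96 TPM or about 194 fragments, and was called higher there; in CK roots, where it was listed at 0, 3 fragments would have been 0.118 TPM. The UBC24 sum was 84.3 TPM in LP roots against 114 in CK roots, and 104 in LP shoots against 53.7 in CK shoots, and neither medium ratio of the sum passed the rule (-0.43 and 0.93).

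Between organs, roots against shoots under LP, 2 of 15 regulators tested were higher in roots, 6 were lower and 7 did not pass. Over all genes 41.7% were higher in roots and 37.6% lower, and over eudicot-matched genes 20.3% and 53.5%. Among the 14 set against the rule under CK, 4 were called higher in roots, 5 were called lower and 5 did not pass, against 26.5% and 54.2% over all genes and 20.7% and 53.1% over eudicot-matched genes. The regulators called lower in roots were a smaller share (40.0% under LP, 35.7% under CK) than among eudicot-matched genes, and those called higher a smaller share under LP (13.3%) and a larger one under CK (28.6%). Under CK, PHR2 (1.14), the 405 bp PHR1-LIKE 1-like contig (1.64), the 1689 bp SIZ1 contig (2.67) and the 2074 bp UBC24 contig (1.65) were higher in roots. Of these 4, the first 3 were lower in roots under LP (-1.64, -2.26 and -2.44) and the UBC24 contig was level (-0.05). The 5 lower in roots under CK were both PHL2 contigs (-1.09 for 1297 bp and -1.24 for 1418 bp), the 789 bp PHR1-LIKE 1-like contig (-3.38) and both LPR1 contigs. Scaled, the 1297 bp PHL2 contig was short of the rule under CK (-0.97) and PHL1 came past it as higher in roots (1.09, against 0.98 unscaled). Under LP, the higher ones in roots were the 441 bp SIZ1 contig and the 879 bp UBC24 contig, and the 1418 bp PHL2 contig (-2.55) and the 1790 bp SIZ1 contig (-2.10) were also lower. The 2 comparisons between organs draw on the same 4 libraries as those between media, so these values restate the levels given above. Scaled by the median, the LP root ratio of PHR2 to shoots was -0.82, short of the rule, and 5 regulators were higher in LP roots, among them PHL1 (1.07) and the 920 bp SIZ1 contig (1.14). LPR1 of 1983 bp was lower in roots under both media, with log2 ratios of -4.31 under LP and -5.22 under CK.

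Other genes of the pathway were counted by the same rule from lists of protein names, all members included whatever their best match. Proteins with an SPX domain, which senses phosphate, had 4 of 6 tested higher and 0 lower in LP roots and 2 of 6 higher and 0 lower in LP shoots. The 4 in roots were all SPX membrane proteins, a family of vacuolar phosphate transporters, and not the soluble SPX proteins that bind PHR; the 2 in shoots were contigs of the soluble SPX2 and SPX3. Inositol phosphate kinases, which make the SPX ligands, had 2 higher and 1 lower of 10 in roots and 3 and 1 of 11 in shoots. Genes of importer turnover and traffic (BAH1, the ubiquitin ligase also called NLA, and SEC12-like proteins) had 4 higher and 0 lower of 7 in roots, each of the 4 listed at 0 in CK roots, and 1 and 1 of 6 in shoots. The list around LPR1 (the ATPase PDR2, the factor STOP1 and malate channels) had 5 higher and 6 lower of 15 in roots and 4 and 4 of 18 in shoots. The SUMO pathway apart from SIZ1 had 7 higher and 6 lower of 20 in roots and 3 and 1 of 21 in shoots. In it, SUMO2 of 418 bp had 38.06 TPM in LP roots and 113.83 TPM in CK roots (-1.56), but 363.61 TPM in LP shoots and 303.85 TPM in CK shoots (0.26).

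PHR relatives of other names had 7 higher and 3 lower of 13 in roots and 2 and 5 of 14 in shoots. All 7 higher in roots stood under 1 TPM in CK roots, and most were listed at 0 there. PHL11 contigs of 421 and 599 bp, with identifiers of 1 assembly component, moved in opposite directions in roots (3.2 and -2.6). Other transcription factors tied to phosphate, here WRKY6, WRKY42 and WRKY75 contigs, had 6 higher and 3 lower of 9 in roots and 6 and 0 of 8 in shoots. All of the 6 higher in roots were listed at 0 in CK roots except a WRKY75 contig of 682 bp, which was not eudicot-matched. The 3 lower in roots were all named WRKY6, and those of 1218 and 864 bp carry identifiers of 1 assembly component. Both WRKY42 contigs were among the higher ones in roots. PHT1 importers and PHO1 family members, the targets of the pathway, had 6 higher and 14 lower of 23 in roots and 13 and 4 of 21 in shoots. Their median log2 ratio was -1.19 in roots and 1.16 in shoots, where those of the regulators were -0.30 and 0.45. These counts stand beside the 64.2% higher and 22.4% lower of all genes in roots and the 40.1% and 23.0% in shoots. Most members of each list were eudicot-matched, and over eudicot-matched genes the shares were 40.0% and 33.8% in roots. In shoots they were 26.4% and 21.1%. Nothing particular to a list was tested.

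Genes with the most similar pattern over the 4 libraries were ranked by the root mean square difference of centred log2(TPM + 1), among 20108 to 20110 eudicot-matched genes with a name and at least 5 TPM. The likeness rests on 4 libraries, and 27 to 296 genes lay within 0.25 of each contig. Closest to PHR2 were WEL2 (0.039), the corepressor relative TPR4 (0.064) and vps13A (0.072). The TPR4 contig had 21.94 TPM in LP roots against 75.97 in CK roots, and 71.51 in LP shoots against 36.44 in CK shoots. Closest to PHL1 were BRR2C (0.036), LPEAT2 (0.044) and UPL5 (0.052), to the 920 bp SIZ1 contig AGD14 (0.014), At5g22100 (0.015) and At2g32450 (0.033), and to the 2352 bp UBC24 contig TCF25 (0.021), UBP26 (0.048) and RH17 (0.049). The 1983 bp LPR1 contig had the fewest neighbours, 27, the closest being the oxidoreductase At4g09670 (0.073), the plastid sigma factor SIGB (0.098) and ABCC3 (0.135). SIGB had 0.82 TPM in LP roots, was listed at 0 in CK roots, and had 29.14 TPM in LP shoots and 33.94 in CK shoots.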

How the data were processed

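Poly(A) RNA of 4 libraries was sequenced as read pairs, per the labels' protocols. Per the submitters' processing notes, the tools were cutadapt 1.9 and FastQC. How reads were assembled, aligned and quantified is not stated there. The values deposited by the authors are TPM, as the column sums show, beside contig lengths and protein annotations per the file headers. Contigs were read by name, and log2((first + 1)/(second + 1)) was computed in Python 3.11.15 with pandas 2.3.3 and NumPy 2.4.6; the pseudocount of 1 TPM understates changes of low contigs. With 1 library per group no test, p-value or spread exists. A step was fitted to the low values of single-transcript contigs of 1 length. At 300 to 600 bp, where a step was found, 93.6% to 99.4% of low values by library were whole multiples of it within 0.0065 TPM. The step was fitted to largely these same values, so this share cannot test it. The step was taken as 1 fragment and extended along length. Fragment numbers are approximate for contigs of several transcripts. Calls and steps were tested on simulated data. TPM are shares of a fixed total, so RNA of other organisms lowers birch values. The contigs, lists and named genes (every contig of at least 5 TPM and, for the pattern search, the 3 closest genes) were chosen with earlier results of these data known. The eudicot sorting uses the organism of the best match. Genes without a match organism fall outside it and were not told apart from genes of other organisms. Alternatives were another pseudocount, minimum, threshold, scaling, length minimum and sums over names.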

Additional observations from a re-analysis of the deposited data

Results flagged for a closer look

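Opposite calls in the 2 organs marked PHR2 and the 1689 bp SIZ1 contig. PHR2 had a log2 ratio of LP to CK of -1.68 in roots and 1.10 in shoots. The SIZ1 contig had -3.89 in roots and 1.22 in shoots. Summed with the 920 bp contig of its assembly component, which may share its reads, it had -0.92 in roots and 0.02 in shoots. Both ratios of that sum were within the rule. With 1 library per group the difference between organs was not tested. The eudicot share of the TPM was 51.4% in LP roots and 65.8% in CK roots, and its part in the root ratios was not tested; scaled by the median over eudicot-matched genes they were -1.08 for PHR2 and -3.38 for the SIZ1 contig. The scaled shoot ratio of PHR2 was 0.99, short of the rule, so its opposite calls were lost under that scaling, while that of the SIZ1 contig was 1.10, still past it.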

How the results depend on the processing

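No paired analysis was possible because each group is 1 library. Counts of regulators are given as higher, then lower, where they moved by over 1.5 times. Summed over protein names, 1 name was higher and 2 lower in LP roots, 1 higher and 0 lower in LP shoots, 0 higher and 3 lower in roots against shoots under LP, and 3 lower under CK; fewer items enter there. A log2 threshold of 2 left 0 higher in LP shoots, and 1 higher and 3 lower in roots against shoots under CK. Median scaling gave 2 lower in LP shoots and 5 higher in LP roots against LP shoots. Contigs of at least 400 bp gave 0 lower in LP shoots, since the 240 bp LPR1 contig was the 1 called, and a minimum of 5 TPM gave 1 higher in LP roots against LP shoots. The sums turned 5 called ratios: UBC24 of 879 bp (-0.43 in roots between media, -0.29 between organs under LP), SIZ1 of 441 bp (-0.39 and -0.40) and PHL2 of 1418 bp (0.20 in roots between media), since each then takes the value of its summed name. Of 57 single ratios, median scaling moved 35 and a pseudocount of 0.1 TPM moved 8, and neither reversed a called one. Scaling ended the calls of PHR2 in shoots between media (0.99) and between organs under LP (-0.82), and of PHL2 of 1297 bp between organs under CK (-0.97). Low depth limits the 240 bp LPR1 contig, about 29.9 fragments in CK shoots.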

Other observations

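The PHR relative PHL5 (1231 bp) was chosen from 15 such contigs after its values were seen. It had 19.9 TPM in LP roots against 45.19 TPM in CK roots, with 10.82 TPM in LP shoots and 4.43 TPM in CK shoots. Its unscaled log2 ratios of -1.14 in roots and 1.12 in shoots ran in the same directions as those of PHR2. Median scaling placed LP roots 0.63 log2 units below CK roots, which would leave the root ratio of PHL5 short of the rule. Scaled ratios were not computed for PHL5, and the difference between organs was not tested.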
